A study of Mus musculus with 6 samples.

Results

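Aminoacyl-tRNA synthetases, the enzymes that load each transfer RNA with its amino acid, were followed in sorted crypt epithelial cells of the mouse small intestine that lack or carry the peptide gene Apln. The 40 genes were taken from the 28564 rows of the gene count table by symbol: protein-coding genes named for a 1-letter amino acid code followed by "ars", the bifunctional and 2-subunit enzymes whose names differ from that pattern, and the scaffold genes Aimp1 and Aimp2. They comprised 19 cytosolic enzyme genes, 17 mitochondrial ones, 2 genes whose products serve both compartments (Gars and Kars) and the 2 scaffolds. All 40 passed the filter on low counts, which left 15122 genes for testing. One group was Apln-/- mice, which lack the gene for apelin, a peptide ligand of the apelin receptor, and the other was wild-type C57Bl/6 controls. All were males aged 13 weeks, with 3 libraries per genotype that the labels call biological replicates. The labels do not give the background strain of the mutant mice or say whether each library came from its own mouse, so the p-values measure the spread between these libraries. Cells were sorted as live singlets positive for EpCAM and CD44 and negative for the endothelial and leukocyte proteins CD31 and CD45, and their RNA was amplified before sequencing.

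Each synthetase recognises 1 amino acid and the transfer RNAs that carry it, and joins them at the cost of ATP, so that the ribosome reads the genetic code through the products of these enzymes. Mitochondria translate their own small set of messages with a separate set of synthetases that are encoded in the nucleus and imported, and that mostly carry a 2 at the end of their symbols. In the cytosol several of the enzymes are held with Aimp1, Aimp2 and a further scaffold in the multisynthetase complex, and the transcription factor ATF4 raises many cytosolic synthetase genes when amino acids are short or the endoplasmic reticulum is stressed. Crypt epithelium holds stem cells, their dividing progeny and secretory cells, all of which make much protein.

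The libraries held 23046880 to 26513481 counts, of which the 5 most abundant entries (mt-Rnr1 and mt-Rnr2 of the mitochondrial ribosome, Gm42418, CT010467.1 and Gm23935) took 77.3% to 78.9% in the Apln-/- libraries and 70.7% to 75.3% in the wild-type libraries. That left 5144725 to 5623112 counts for all other genes in the Apln-/- libraries and 6037237 to 7616648 in the wild-type libraries. Apln itself had 0, 0 and 0 counts in the Apln-/- libraries, against 29, 7 and 5 in the wild-type libraries. The sorted proteins were well represented, with Epcam at 309.6 ± 24.6 CPM in Apln-/- cells and 294.5 ± 12.9 CPM in wild-type cells (SD, n = 3 each; CPM are counts scaled by TMM and by library size). Of 18 crypt markers none passed the adjusted threshold, but 3 were higher and 5 lower at an unadjusted p under 0.05, where 7.53% of all genes tested were higher and 7.66% lower. The Paneth cell lysozyme Lyz1 had a log2 fold change of Apln-/- over wild type of 1.19 ± 0.28 (SE), with Defa24 and Krt8 the other higher ones. The lower ones were Chga of enteroendocrine cells at -1.19 ± 0.23, Dclk1 of tuft cells at -1.01 ± 0.26, Muc2 of goblet cells at -1.03 ± 0.37, the proliferation marker Mki67 at -0.82 ± 0.17 and Fabp1 of enterocytes at -1.01 ± 0.34. Muc2 overlapped between genotypes, at 416, 541 and 581 CPM in the Apln-/- libraries and 714, 520 and 1899 CPM in the wild-type libraries. Another proliferation marker, Top2a, stood at 0.06 ± 0.14, and the enterocyte markers Alpi and Vil1 at -0.19 ± 0.20 and -0.12 ± 0.18. Summed endothelial markers stood at 1.38 to 2.35 CPM in the Apln-/- libraries and 1.07 to 4.55 CPM in the wild-type libraries, and immune markers at 18.9 to 24.9 CPM in the Apln-/- libraries and 17.9 to 29.9 CPM in the wild-type libraries. Cdh5, the cadherin of endothelial cells, had 1, 0 and 0 counts in the Apln-/- libraries and 0, 0 and 0 in the wild-type libraries. Cd4, of helper T cells, had 0, 0 and 0 counts in the Apln-/- libraries and 4, 0 and 1 in the wild-type libraries. Other endothelial markers had more counts and differed in direction. Vwf had 4, 11 and 13 counts in the Apln-/- libraries and 13, 110 and 23 in the wild-type libraries. Egfl7 had 21, 10 and 14 counts in the Apln-/- libraries and 4, 0 and 2 in the wild-type libraries. Pecam1, the gene of CD31, had 13, 1 and 7 counts in the Apln-/- libraries and 33, 7 and 6 in the wild-type libraries. Summed fibroblast and smooth muscle markers spanned 12.1 to 39.6 CPM in the Apln-/- libraries and 3.00 to 35.3 CPM in the wild-type libraries. Of the 10 tested, 4 had positive and 6 negative log2 fold changes. The largest were 3.04 for Acta2 and 2.70 for Myh11, which had 147 and 234 counts in Apln-/- replicate 2, the highest library of each. The part of these markers and of the depth in the results below was not tested, and in bulk RNA fewer cells of a type and less RNA per cell cannot be told apart.

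No synthetase or scaffold gene passed the adjusted threshold between the genotypes, and the genes of lowest p were the 2 scaffolds, with higher levels in Apln-/- cells, and the tryptophanyl enzyme Wars, with lower levels. The edgeR quasi-likelihood test, with Benjamini-Hochberg adjustment over all genes tested and a threshold of 0.05, called 0 of the 40 genes, where it called 26 of 15122 genes, 0.172% of them, 17 higher (0.112%) and 9 lower (0.0595%) in Apln-/- cells. That count over all genes was 1, a lower gene, with DESeq2 size factors, upper-quartile scaling, a length and GC correction or without the 5 most abundant entries, and 0 of the 40 were called under each of these. At an unadjusted p under 0.05 it found 7 of the 40, of which 5 were higher (Aimp2, Aimp1, Fars2, Nars2 and Dars) and 2 lower (Wars and Iars), against 15.2% of all genes tested, so the share of the members was near that background. DESeq2's Wald test called 2 of the 40, Aimp2 and Wars, beside 581 of the 10137 genes to which it gave an adjusted p, 5.73%, and limma-voom called 0, beside 56 genes or 0.370%. Without a filter on low counts edgeR called 1 of the 40, Aimp2, beside 2.20% of 28564 genes. The levels of the 2 genotypes did not overlap for 9 of the 40 genes, 7 of them higher in Apln-/- libraries and 2 lower, where 20.9% of all genes tested showed no overlap, 11.3% higher and 9.56% lower. The median log2 fold change of Apln-/- over wild type was -0.014 over the 40 genes, with 20 positive and 20 negative, and -0.0063 over all genes tested.

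**Figure D1:**
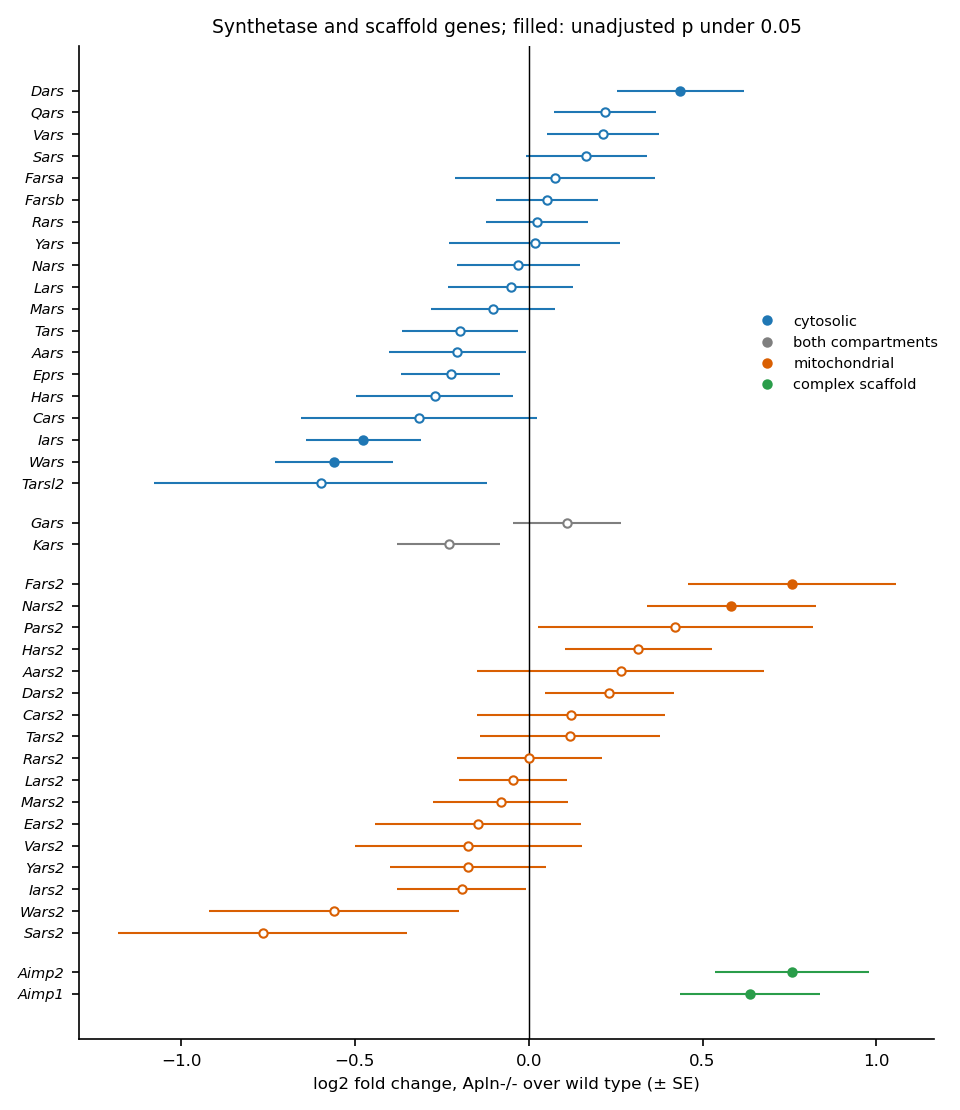
Log2 fold change of Apln-/- over wild type for each of the 40 genes (x axis), with bars for the standard error, grouped by compartment and coloured by group. Filled points are the 7 genes with an unadjusted p under 0.05; 20 of the 40 points lie right of 0 and 20 left of it, and both scaffolds lie to the right.

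Sequence at the start of the cytosolic genes is shown because ATF4, with its C/EBP partners, is known to bind the element TGATGNAA, which reads TTNCATCA on the other strand. The RefSeq promoters of the mouse build GRCm38.p6, each running from 250 bases before a gene's start to 50 after it, matched 30 of the 40 genes. The letters TGATGNAA or TTNCATCA, searched on both strands, stood in the promoter of 5 genes, all of them cytosolic or shared between compartments (5 of 14), and in 0 of 14 mitochondrial and 0 of 2 scaffold genes. Of all 27025 genes with a promoter in the table, 1219 held them, or 4.51%. The 30 bases around the element follow for 4 of the 5 genes, on the gene's own strand, 5′ to 3′, with the element in capitals.
Gars, chr6:55037960-55037989, plus strand: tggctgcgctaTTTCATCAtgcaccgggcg
Iars, chr13:49682126-49682155, plus strand: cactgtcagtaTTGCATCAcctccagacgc
Tars, chr15:11399655-11399684, minus strand: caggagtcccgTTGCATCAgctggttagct
Yars, chr4:129189895-129189924, plus strand: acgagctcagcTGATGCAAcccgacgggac
The first base of the element lay 30 bases before the start in Gars and 15 before it in Tars, 3 bases after it in Yars and 7 after it in Iars. The log2 fold changes of these 4 genes were 0.11 for Gars, -0.48 for Iars, -0.20 for Tars and 0.02 for Yars, of which those of Gars and Yars lay within their standard errors of 0.16 and 0.25 of 0. A match of letters is a description of the sequence and not of binding.

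Both scaffold genes had the higher levels in Apln-/- cells, by a margin that did not pass the adjusted threshold in edgeR. Aimp2 (chr5:143902704-143909847, minus strand, mm10), whose product anchors the lysyl and aspartyl enzymes in the complex, had 10.6, 16.3 and 12.7 CPM in the Apln-/- libraries, against 6.71, 9.06 and 7.63 CPM in the wild-type libraries. Every Apln-/- library lay above every wild-type library. The log2 fold change of Aimp2 was 0.76 ± 0.22 (SE), or 1.69-fold, with an unadjusted p of 0.00481 and an edgeR quasi-likelihood Benjamini-Hochberg adjusted p of 0.143. Over all genes tested the log2 fold change fell with transcript length (Spearman rho -0.26), and Aimp2, at 1185 bases, is the shortest of the 40. After correction for transcript length and GC content its log2 fold change was 0.62, with an edgeR adjusted p of 0.306. DESeq2 gave Aimp2 a log2 fold change of 0.74 and an adjusted p of 0.04995, just inside the threshold. Aimp1 (chr3:132660499-132684370, minus strand), which tethers the arginyl and glutaminyl enzymes and is also released as a secreted factor, had 20.5, 16.6 and 19.0 CPM in the Apln-/- libraries, against 9.96, 10.9 and 15.2 CPM in the wild-type libraries. Here too the genotypes did not overlap, but wild-type replicate 3 came near the lowest Apln-/- library. Aimp1 had a log2 fold change of 0.64 ± 0.20 with an unadjusted p of 0.00789 and an edgeR adjusted p of 0.169. Without wild-type replicate 3 its log2 fold change was 0.85 with an edgeR adjusted p of 0.044, and it was then the single called gene of the 40, beside 2.27% of all genes tested.

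The summed level of the 2 scaffolds was 31.1, 32.9 and 31.7 CPM in the Apln-/- libraries and 16.7, 19.9 and 22.9 CPM in the wild-type libraries, a ratio of means of 1.61. The further scaffold of the complex, Eef1e1, which belongs to the list of aminoacylation partners, stood at 5.53, 6.78 and 5.43 CPM in the Apln-/- libraries and 3.93, 2.76 and 4.38 CPM in the wild-type libraries. Its genotypes did not overlap either, and its log2 fold change was 0.68 ± 0.27 with an edgeR adjusted p of 0.261. Aimp2 shares 487 exon bases, 29.4% of its exon length, with Eif2ak1 on the opposite strand, and Aimp1 shares 163 with Tbck. The sources used here do not say whether the counting used strand, so reads from these stretches cannot be assigned to either gene. Eif2ak1, the heme-regulated kinase of eIF2, averaged 18.8 ± 0.830 CPM in Apln-/- cells and 22.3 ± 2.96 CPM in wild-type cells. Tbck averaged 10.2 ± 0.273 CPM in Apln-/- cells and 12.1 ± 0.917 CPM in wild-type cells (SD, n = 3 each for both genes). The part of shared reads in the scaffold values was not tested.

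**Figure D2:**
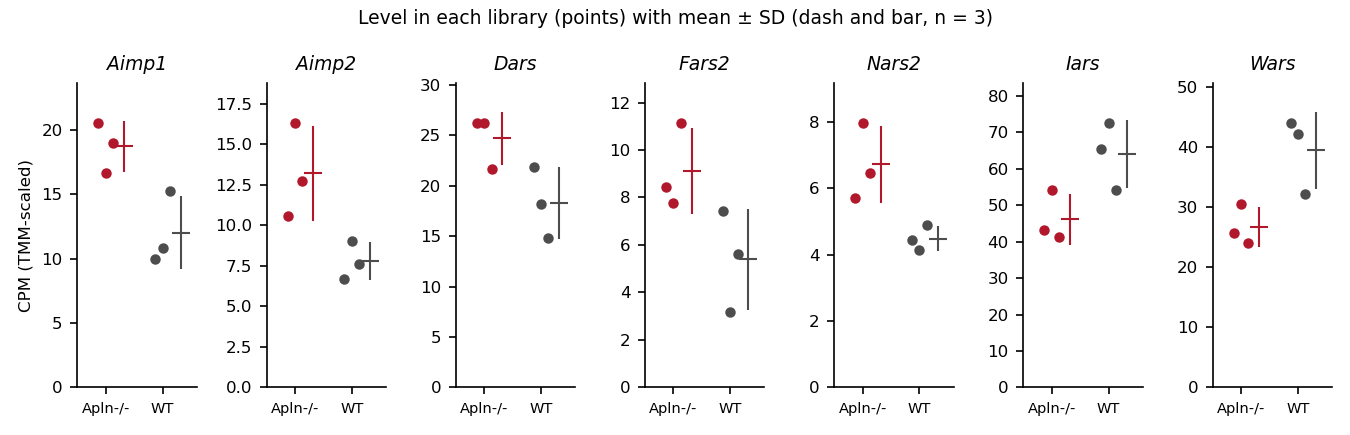
TMM-scaled CPM (y axis, from 0) of the 7 genes with an unadjusted p under 0.05 in each Apln-/- (red) and wild-type (grey) library, with a dash and bar for the mean ± SD (n = 3 each). The genotypes do not overlap for 6 of the genes; for Dars the lowest Apln-/- library, 21.6 CPM, lies under the highest wild-type library, 21.9 CPM.

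Among the 19 cytosolic enzymes, the clearest differences were lower levels of the tryptophanyl and isoleucyl enzymes. Wars (chr12:108860030-108894174, minus strand), the tryptophanyl-tRNA synthetase, a gene known to be raised by interferon gamma, had 25.7, 30.4 and 24.0 CPM in the Apln-/- libraries, against 44.0, 42.1 and 32.1 CPM in the wild-type libraries. All wild-type libraries were above all Apln-/- libraries, with the narrowest gap between Apln-/- replicate 2 and wild-type replicate 3. The log2 fold change of Wars was -0.56 ± 0.17, with an unadjusted p of 0.00605 and an edgeR adjusted p of 0.155, while DESeq2 gave -0.58 and an adjusted p of 0.0431. Among the immune markers Ptprc, the gene of CD45, averaged 1.42 ± 0.335 CPM in Apln-/- cells and 2.77 ± 0.567 CPM in wild-type cells, at an unadjusted p of 0.0284. The 8 immune markers tested did not share that direction throughout, with 5 positive and 3 negative log2 fold changes and a median of 0.13. Itgam, the one of highest level, was at -0.43, with 10.75 CPM in Apln-/- cells and 14.45 CPM in wild-type cells and overlapping genotypes. Gzmb at 1.10, Gzma at 0.51 and Csf1r at 0.38 rested on at most 44 counts in a library. The part of the immune markers in the Wars values was not tested. Iars (chr13:49682100-49734267, plus strand), the isoleucyl enzyme of the complex, had 43.1, 54.1 and 41.2 CPM in the Apln-/- libraries, against 65.6, 72.7 and 54.3 CPM in the wild-type libraries. Its highest Apln-/- library and lowest wild-type library nearly met. Iars had a log2 fold change of -0.48 ± 0.17, with an unadjusted p of 0.014 and an edgeR adjusted p of 0.211. A processed pseudogene at another locus, Gm4849, matches an Iars transcript at 96.0% identity over 1656 bases and could share reads with it; it averaged 1.63 ± 0.569 CPM in Apln-/- cells and 3.01 ± 0.750 CPM in wild-type cells.

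In the other direction Dars (chr1:128363707-128417368, minus strand), the aspartyl enzyme of the complex, had 26.2, 26.3 and 21.6 CPM in the Apln-/- libraries, against 21.9, 18.2 and 14.8 CPM in the wild-type libraries. The ranges touched, since Apln-/- replicate 3 fell just under wild-type replicate 1. Dars had a log2 fold change of 0.44 ± 0.18 with an unadjusted p of 0.0337 and an edgeR adjusted p of 0.281, and the value was 0.28 after correction for transcript length and GC content. Qars, the glutaminyl enzyme, was the remaining cytosolic gene without overlap, at 30.8, 31.8 and 29.9 CPM in the Apln-/- libraries against 27.3, 28.4 and 23.8 CPM in the wild-type libraries, with a log2 fold change of 0.22 ± 0.15 and an edgeR adjusted p of 0.526. The rest of the cytosolic genes overlapped, and their fold changes ran from -0.60 for Tarsl2, the threonyl enzyme of lowest level, to 0.21 for Vars, the valyl enzyme. The cytosolic enzymes summed to 515, 584 and 477 CPM in the Apln-/- libraries and 558, 571 and 556 CPM in the wild-type libraries, so the Apln-/- libraries were both the highest and the lowest. Their median log2 fold change was -0.05, with 8 positive and 11 negative.

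Of the enzymes serving both compartments, Gars, the glycyl enzyme, had 28.3, 33.3 and 25.6 CPM in the Apln-/- libraries and 26.0, 26.0 and 28.7 CPM in the wild-type libraries. Kars, the lysyl enzyme and a member of the complex, had 27.5, 31.2 and 28.3 CPM in the Apln-/- libraries and 34.8, 36.5 and 30.8 CPM in the wild-type libraries. Both overlapped between genotypes. Their log2 fold changes were 0.11 ± 0.16 for Gars and -0.23 ± 0.15 for Kars, with edgeR adjusted p-values of 0.788 and 0.503 in that order of genes.

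The 8 enzymes of the multisynthetase complex (Dars, Eprs, Iars, Kars, Lars, Mars, Qars and Rars) pointed in both directions. Their log2 fold changes were positive for Dars, Qars and Rars and negative for the other 5, with a median of -0.078, where those of Aimp1 and Aimp2 were 0.64 and 0.76. Without Apln-/- replicate 1 the median of the 8 was 0.0020. Sorted by the fold of the catalytic domain, the 19 class I enzymes had a median log2 fold change of -0.10 with 6 positive and 13 negative, and the 19 class II enzymes had 0.11 with 12 positive and 7 negative. Eprs, which joins a glutamyl and a prolyl enzyme in 1 chain, was counted in class I. No class I gene was higher and 2 were lower at an unadjusted p under 0.05, against 3 higher and 0 lower in class II, where 7.53% of all genes tested were higher and 7.66% lower. Both medians kept their signs in every alternative tried, between -0.12 and -0.049 for class I and between 0.057 and 0.20 for class II. The classes were compared after the values were seen, and no test was made of them.

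Of the 17 mitochondrial enzymes, Fars2 and Nars2 had the clearest differences. Fars2 (chr13:36117412-36726280, plus strand), the mitochondrial phenylalanyl enzyme, had 8.44, 7.75 and 11.2 CPM in the Apln-/- libraries, against 7.42, 3.17 and 5.61 CPM in the wild-type libraries. The genotypes did not overlap, but Apln-/- replicate 2 and wild-type replicate 1 were close. Fars2 had a log2 fold change of 0.76 ± 0.30 with an unadjusted p of 0.0255 and an edgeR adjusted p of 0.254. Without wild-type replicate 2 its log2 fold change was 0.48. Fars2 shares exon bases on the opposite strand with Nrn1 (501 bases) and Lyrm4 (115 bases). Nrn1 averaged 1.96 ± 0.903 CPM in Apln-/- cells and 1.17 ± 1.56 CPM in wild-type cells, and Lyrm4 4.98 ± 0.417 CPM in Apln-/- cells and 5.27 ± 1.79 CPM in wild-type cells (SD, n = 3 each). Nars2 (chr7:96951505-97064758, plus strand), the mitochondrial asparaginyl enzyme, had 5.72, 7.98 and 6.47 CPM in the Apln-/- libraries, against 4.44, 4.13 and 4.89 CPM in the wild-type libraries. All Apln-/- libraries were above all wild-type libraries. Nars2 had a log2 fold change of 0.58 ± 0.24 with an unadjusted p of 0.0335 and an edgeR adjusted p of 0.281.

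Hars2 and Pars2, the mitochondrial histidyl and prolyl enzymes, also showed no overlap. Hars2 averaged 8.13 ± 0.736 CPM in Apln-/- cells and 6.53 ± 0.602 CPM in wild-type cells, and Pars2 2.14 ± 0.278 CPM in Apln-/- cells and 1.59 ± 0.354 CPM in wild-type cells (SD, n = 3 each). Their edgeR adjusted p-values were 0.526 and 0.664 in that order of genes. The lowest fold changes belonged to Sars2, the seryl enzyme, at -0.77 ± 0.42 with an edgeR adjusted p of 0.416, and to Wars2, the tryptophanyl enzyme, at -0.56 ± 0.36 with an edgeR adjusted p of 0.503. Both had wide wild-type ranges, 2.40 to 7.54 CPM for Sars2 and 2.98 to 9.53 CPM for Wars2, which took in most of the Apln-/- range of 1.88 to 3.73 CPM for Sars2 and all of that of 3.92 to 4.94 CPM for Wars2. Without wild-type replicate 2 the log2 fold change of Sars2 was -0.27, and without wild-type replicate 3 that of Wars2 was -0.15. The median log2 fold change of the 17 genes was 0.0021, with 9 positive and 8 negative. The spread between libraries was the smaller in Apln-/- cells for 13 of the 17 mitochondrial genes, with a median coefficient of variation of 12.4% in Apln-/- cells and 22.2% in wild-type cells, and for 8 of the 19 cytosolic genes, with 14.2% in Apln-/- cells and 14.5% in wild-type cells. Over raw counts of the whole table, chi-square per degree of freedom was 26.4 to 54.75 between pairs of wild-type libraries. Between Apln-/- pairs it was 7.60 to 22.3. Entries of highest count weigh most in that statistic, so it is no background for the coefficients of variation of single genes. The coefficient of variation was not summarised over all genes. No library was highest throughout: Apln-/- replicate 2 held the highest CPM of the 6 libraries for 11 of the 40 genes and Apln-/- replicate 3 for 1.

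Levels of different genes were compared per kilobase of the longest annotated transcript, as RPKM computed from the TMM-scaled CPM. Lars2, the mitochondrial leucyl enzyme, stood far above the rest. Below it came Nars, the asparaginyl enzyme, at a mean of 30.3 RPKM over the 6 libraries, Farsb, the beta subunit of the phenylalanyl enzyme, at 24.3 RPKM, and Rars, the arginyl enzyme, at 21.4 RPKM, whose ranges overlapped from each to the next. A gap followed, since the lowest library of Rars, at 19.1 RPKM, was above the highest of Kars, at 15.1 RPKM. From Kars, with a mean of 13.0 RPKM, and Eprs, with 12.6 RPKM, the order ran without a further gap between neighbours down to Pars2 at 0.612 RPKM, so that the exact ranks there lie within the spread of the libraries. Across genotypes the highest genes showed little difference: Nars had 73.5, 100.6 and 72.5 CPM in the Apln-/- libraries and 70.8, 83.6 and 97.3 CPM in the wild-type libraries. Farsb had 49.7, 55.5 and 45.9 CPM in the Apln-/- libraries and 51.0, 50.2 and 44.4 CPM in the wild-type libraries, and it shares 248 exon bases with Sgpp2 on the opposite strand. These ranges overlapped between genotypes for each gene. Rars had 45.5, 50.6 and 40.2 CPM in the Apln-/- libraries and 46.3, 45.0 and 42.7 CPM in the wild-type libraries. Eprs had 62.5, 71.3 and 62.5 CPM in the Apln-/- libraries and 69.9, 79.0 and 80.5 CPM in the wild-type libraries. The genotypes overlapped for these genes too, with log2 fold changes of 0.02 ± 0.15 for Rars and -0.22 ± 0.14 for Eprs.

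**Figure D3:**
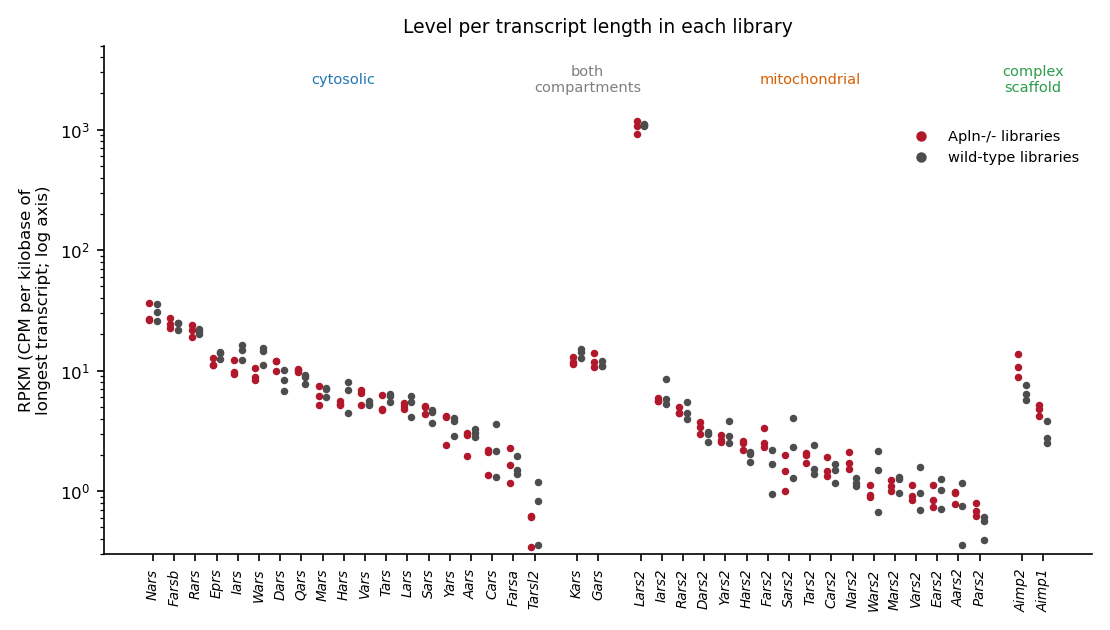
RPKM of every gene (y axis, log scale) in each Apln-/- (red) and wild-type (grey) library, by compartment and ordered by mean level. Lars2 lies near 1057 RPKM in Apln-/- cells and 1091 RPKM in wild-type cells, and no other gene has a mean above the 30.3 RPKM of Nars.

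By mean level per length, cytosolic enzymes outranked their mitochondrial partners for nearly every amino acid, apart from leucine. There were 17 mitochondrial genes with a cytosolic gene for the same amino acid (Farsa for phenylalanine, Tars for threonine, Eprs for glutamate and proline). Leaving out Lars2, the cytosolic level per length was the higher in both genotypes in 15 of 16 pairs, with a median ratio of 3.30 in Apln-/- cells and 3.70 in wild-type cells. The exception was phenylalanine, with a ratio of Farsa to Fars2 of 0.625 in Apln-/- cells and 1.00 in wild-type cells. That pair rests on the choice of subunit, since Farsb, the other subunit of the cytosolic enzyme, stood at 24.7 RPKM in Apln-/- cells and 23.9 RPKM in wild-type cells, against 2.71 RPKM in Apln-/- cells and 1.604 RPKM in wild-type cells for Fars2. For threonine, the other cytosolic gene, Tarsl2, had a mean of 0.657 RPKM, below the 1.85 RPKM of Tars2. Some pairs overlapped between libraries, such as Yars at 2.44 to 4.24 RPKM and Yars2 at 2.49 to 3.80 RPKM. Cars and Cars2, and Sars and Sars2, overlapped too. The widest ratios were those of Nars to Nars2, 16.8 in Apln-/- cells and 25.7 in wild-type cells, and of Eprs to Pars2, 16.5 in Apln-/- cells and 26.0 in wild-type cells. All these ratios depend on the longest annotated transcript, which need not be the one expressed. Mars2 is listed with 11294 bases and Mars with 3065. In Apln-/- cells their ratio per length was 5.64, from 19.2 CPM for Mars and 12.6 CPM for Mars2. The median RPKM over the 6 libraries was 5.91 for the 19 cytosolic genes and 1.68 for the 16 mitochondrial genes other than Lars2, of which Iars2, the isoleucyl enzyme, was highest at 6.15 RPKM.

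Between genotypes the compartments were close. The mitochondrial enzymes other than Lars2 summed to 130 CPM in Apln-/- replicate 1, 131 in replicate 2 and 132 in replicate 3, against 121, 142 and 128 CPM in the wild-type libraries. The ratio of the cytosolic to this mitochondrial sum was 4.02 ± 0.419 in Apln-/- cells and 4.33 ± 0.300 in wild-type cells (SD, n = 3 each), with overlapping ranges. The cytosolic median log2 fold change was lower than the mitochondrial one by 0.055, a difference of -0.055, and -0.11 with Lars2 left out. Within pairs, the cytosolic log2 fold change was below the mitochondrial one for 11 and above it for 6. The difference of medians was -0.23 without Apln-/- replicate 2 and -0.038 without wild-type replicate 3. Iars2 shares 2034 exon bases with Rab3gap2 on the opposite strand, 22.9% of its exon length, and Hars and Hars2 share 195 with each other.

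Lars2 (chr9:123366927-123462666, plus strand) supplied most of the counts assigned to the family. It had 98853, 77283 and 87812 counts in the Apln-/- libraries and 107083, 125274 and 132528 counts in the wild-type libraries. After scaling these were 4636, 3566 and 4150 CPM in the Apln-/- libraries and 4249, 4314 and 4180 CPM in the wild-type libraries. The Apln-/- libraries reached both above and below the narrow wild-type range, and the log2 fold change was -0.05 ± 0.15 with an edgeR adjusted p of 0.928. Lars2 made up 96.5% to 97.3% of the mitochondrial synthetase counts and 81.5% to 86.4% of the counts of all 40 genes. For this reason the mitochondrial sums above are given without it.

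The raw Lars2 counts moved with those of Gm23935, an entry that the annotation lists as a microRNA gene of 57 bases (chr16:11144125-11144181) and that was among the 5 most abundant of the table. They amounted to 19.0%, 20.1% and 18.9% of the Gm23935 counts in the Apln-/- libraries and 20.4%, 21.1% and 20.6% in the wild-type libraries. The coefficient of variation of this ratio over the 6 libraries was 4.42%, against 6.96% to 55.6% with a median of 22.6% for the other 39 genes. Those 39 had only 23 to 3084 counts per library, and low counts vary more from counting alone. No gene with as many counts as Lars2 was set against Gm23935, so how unusual the 4.42% is cannot be judged. Ratios of Lars2 to the other abundant entries varied more, by 13.3% for Gm42418, 19.5% for CT010467.1, 29.0% for mt-Rnr2 and 26.0% for mt-Rnr1. The Gm23935 comparison was chosen after its values were seen. The 9 annotated Lars2 transcripts and the 5 abundant entries had no alignment longer than 27 bases, with the longest fully identical alignment at 14 bases. Among these entries the annotation lists CT010467.1 as ribosomal RNA. Introns and ribosomal RNA sequences outside the 5 entries were not compared, so the alignment does not cover them. What the Lars2 counts are made of was not tested, and they are given here as counts assigned to the gene.

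**Figure D4:**
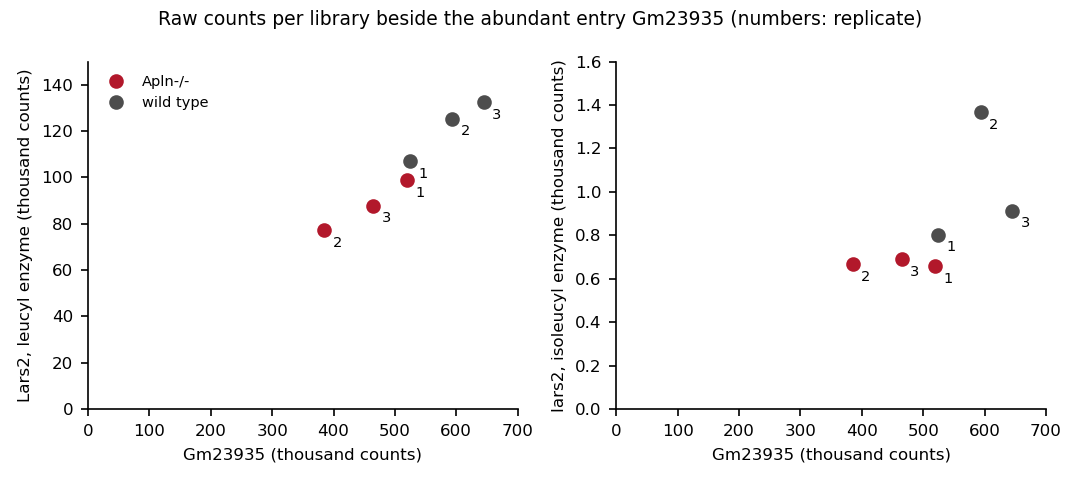
Raw counts of Lars2 (left) and, for comparison, of Iars2 (right) on the y axes against those of Gm23935 on the x axes, in units of 1000 counts, for each Apln-/- (red) and wild-type (grey) library with its replicate number. Lars2 stays at 18.9% to 21.1% of Gm23935 in every library, a ratio with a coefficient of variation of 4.42%, against 22.6% for Iars2. Iars2 has far fewer counts, 658 to 1366 per library.

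Genes that work beside the synthetases were counted in the same fit. In a list of 14 aminoacylation partners (transfer RNA end-processing, editing, delivery and amidation) edgeR called 0, and 4 were higher and 0 lower at an unadjusted p under 0.05, where 7.53% of all genes tested were higher and 7.66% lower, with a median log2 fold change of 0.05. Trnt1, which adds the CCA end that synthetases charge, had 15.7, 17.1 and 18.3 CPM in the Apln-/- libraries, against 12.4, 11.9 and 12.1 CPM in the wild-type libraries. Eef1a1, the elongation factor that carries charged transfer RNA to the ribosome, had 1239, 877 and 1022 CPM in the Apln-/- libraries, against 853, 719 and 651 CPM in the wild-type libraries. Neither gene overlapped between genotypes, and their log2 fold changes were 0.49 ± 0.17 for Trnt1 and 0.50 ± 0.17 for Eef1a1, with edgeR adjusted p-values of 0.206 and 0.212 in that order of genes. The others were Eef1e1, given above, and Dtd1, which removes D-amino acids from transfer RNA, at a log2 fold change of 0.57 ± 0.25 with overlapping genotypes.

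Of 14 measured mitochondrial translation factors, edgeR called 0, and 2 were higher and 0 lower at an unadjusted p under 0.05 (7.53% and 7.66% of all genes tested), with a median log2 fold change of 0.16. These were Mtrf1, a mitochondrial release factor, at 3.68 ± 1.43 CPM in Apln-/- cells and 1.85 ± 0.640 CPM in wild-type cells, and Mrrf, the ribosome recycling factor, at 8.57 ± 1.16 CPM in Apln-/- cells and 5.55 ± 1.45 CPM in wild-type cells (SD, n = 3 each). Both showed no overlap, and Mtrf1 is a gene of low level. Of 38 tested genes of transfer RNA maturation and modification, edgeR again called 0, and 5 were higher and 0 lower at an unadjusted p under 0.05, beside the same 7.53% and 7.66% of all genes tested, with a median log2 fold change of 0.20. Ctu2, a subunit of the enzyme that thiolates the wobble base, had 4.08, 3.88 and 2.84 CPM in the Apln-/- libraries, against 1.51, 0.551 and 1.45 CPM in the wild-type libraries. Its log2 fold change was 1.62 ± 0.43 with an edgeR adjusted p of 0.116. The methyltransferases Nsun6 and Trmt61b had log2 fold changes of 0.94 each, with edgeR adjusted p-values of 0.186 and 0.253 in that order of genes, and the remaining ones were Trnt1 and Hsd17b10, a subunit of mitochondrial RNase P. Median transcript length was 2421.5 bases for the partners, 3114.5 for the mitochondrial factors and 2701 for this last list. Over all genes tested it was 3010. The values of these lists are not corrected for length, and its part in them was not tested.

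Of 27 tested genes of the amino acid response, which ATF4 drives together with cytosolic synthetases, edgeR called 0, and 1 was higher and 4 lower at an unadjusted p under 0.05, where 7.53% of all genes tested were higher and 7.66% lower, with a median log2 fold change of 0.0052. The lower ones were Vldlr, a lipoprotein receptor, at a log2 fold change of -1.13 ± 0.37, Atf5, a related transcription factor, at -0.85 ± 0.30, Shmt2, the mitochondrial serine hydroxymethyltransferase, at -0.50 ± 0.19, and Slc7a1, a transporter of basic amino acids, at -0.55 ± 0.23. Their edgeR adjusted p-values lay between 0.178 and 0.278. The higher one was Cth, which makes cysteine from cystathionine, at 0.53 ± 0.22. Atf4 itself, named here for its role, had 39.7, 43.2 and 47.4 CPM in the Apln-/- libraries and 32.7, 39.4 and 39.9 CPM in the wild-type libraries. Its ranges overlapped, and its log2 fold change was 0.22 ± 0.15 with an edgeR adjusted p of 0.539. Asns, the asparagine synthetase and a widely used ATF4 target, averaged 14.2 ± 0.696 CPM in Apln-/- cells and 14.1 ± 2.57 CPM in wild-type cells (SD, n = 3 each).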

How the data were processed

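The authors deposited a table of raw read counts per gene, whole numbers for 28564 Ensembl identifiers in 6 libraries. Per the labels' protocols, RNA was isolated with an RNeasy Plus Micro kit, amplified (Ovation Pico WTA System V2) and made into Nextera DNA Flex libraries. Per the submitters' processing notes, the tools and build were STAR 2.6.1, HTSeq and mm10. Neither the gene annotation used for counting nor its strand option is stated in the sources used here. Symbols, coordinates, exon overlaps and longest transcripts came from GENCODE M21 of the same build, which matched 28551 identifiers and left 13 unmatched. The synthetases and other lists were chosen with earlier results of these data known.

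Counts were tested in R 4.3.3 with edgeR 4.0.16: filterByExpr (minimum count 10, minimum total 15), TMM scaling, glmQLFit and glmQLFTest on genotype alone, and Benjamini-Hochberg adjustment over all genes tested at 0.05. A standard error is the log2 fold change divided by the root of its F statistic. RPKM is CPM per 1000 bases of the longest transcript. A count of 0 allows up to 3 counts, 0.0946 to 0.142 CPM per library, counting error only. DESeq2 1.42.0 and voom from limma 3.58.1 were alternatives, with other scalings and filters, a replicate block, a length and GC correction, and each library left out. The pipeline was also run on simulated counts with known fold changes, and the share of those recovered is not reported here. Among genes, values are given per library for those with an unadjusted p under 0.05, the 6 of highest level per length, the scaffolds and the shared enzymes, and from each other list the 4 of lowest p were eligible for naming; Qars, Hars2, Pars2, Sars2, Wars2, Atf4, Asns, Cth, Hsd17b10, the cell type markers and the exon neighbours were added after values were seen. The promoter sequence of 1 gene is not reported here.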

Additional observations from a re-analysis of the deposited data

How the results depend on the processing

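The count of synthetase genes called was 0 with edgeR and with every alternative except DESeq2's Wald test (2, Aimp2 and Wars), no filter on low counts (1, Aimp2) and the fits that leave out a library, 0 to 1 (Aimp1, without wild-type replicate 3). The count over all genes, 26, depended on the choices: it was 1 with DESeq2 size factors, upper-quartile scaling, the length and GC correction and without the 5 most abundant entries, 56 with voom, 117 with at least 1 CPM in 3 libraries, 581 with DESeq2, 629 without a filter, and 0 to 358 with a library left out, 358 without wild-type replicate 3 and 0 or 1 otherwise. Whether the replicate numbers pair the samples cannot be decided from the weak correlations between libraries. Same-numbered libraries of the 2 genotypes had deviations correlated at 0.041, 0.057 and 0.011 for replicates 1, 2 and 3. Differently numbered ones lay between -0.052 and 0.017. The names of the deposited Apln-/- columns also do not all carry the replicate number of their label. Replicate 3 of Apln-/- correlated better with another number. With the replicate block 173 genes and 0 synthetase genes were called.

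The cytosolic median was -0.20 to -0.013 with a library left out, the mitochondrial median -0.021 to 0.042, and their difference -0.23 to -0.038. The mitochondrial median was 0.088 after the length and GC correction, 0.060 without Lars2 and -0.015 with DESeq2 size factors, so it has no settled sign. Over all genes the median stayed within 0.1 of 0 under every alternative.

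Of the 40 genes, 21 kept the sign of their log2 fold change in all 15 alternatives, among them the 7 with an unadjusted p under 0.05, and 19 did not. After the length and GC correction the reversed values were 0.036 for Aars, -0.069 for Farsb, 0.0022 for Lars, 0.049 for Lars2, 0.088 for Mars2, -0.095 for Rars, -0.16 for Rars2 and 0.035 for Vars2. Rars2 was also -0.015 with DESeq2 size factors and with the Wald test and -0.010 without the 5 most abundant entries. Yars was -1.5e-05 with the Wald test, -0.0081 with voom and -0.0049 with the replicate block. With a library left out, the ranges that cross 0 were -0.084 to 0.73 for Aars2, -0.62 to 0.13 for Cars, -0.036 to 0.25 for Cars2, -0.35 to 0.046 for Ears2, -0.19 to 0.29 for Farsa, -0.018 to 0.12 for Farsb, -0.33 to 0.042 for Iars2, -0.21 to 0.065 for Lars, -0.14 to 0.053 for Lars2, -0.24 to 0.016 for Mars, -0.20 to 0.095 for Nars, -0.057 to 0.11 for Rars, -0.094 to 0.13 for Rars2, -0.040 to 0.39 for Tars2, -0.43 to 0.22 for Vars2, -0.13 to 0.24 for Yars and -0.31 to 0.020 for Yars2. Except for the length and GC correction and the fits with fewer libraries, whose construction changes the values, the cause was not tested. Mitochondrial genes of a few CPM rest on as few as 30 counts per library, which limits what can be detected.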
